A study of Danio rerio with 18 samples.

Results

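The genes described here are 6 zebrafish genes of embryonic red blood cells: the globin genes hbbe3, hbae3 and hbae5, the transcription factor genes gata1a and blf, and alas2, a heme synthesis gene. They were taken by gene name from a table of raw read counts for 25193 genes, and all 6 names were found. Because near-identical globin copies can share reads, every row of the table named as a globin was also summed, which gave 14 globin rows, of which 8 were alpha-type and 6 beta-type.

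The 18 RNA-seq libraries came from pooled, transgene-positive embryos at 24 hpf (hours post fertilization), with 3 samples in each of 6 groups. AngioTag IP is RNA pulled down with an HA antibody by translating ribosome affinity purification from the Angiotag transgenic line, which the series uses for the endothelial translatome (the ribosome-bound RNA of endothelial cells), and AngioTag input is the starting RNA of that line. RiboTag IP and RiboTag input are the same pair from the Ribotag transgenic line, used for the whole-embryo translatome. FACS sorted is RNA of GFP-positive endothelial cells sorted from Angiotag transgenic embryos, and FACS total is total RNA of Angiotag transgenic embryos. All groups carry a transgene, so none is a line without a tag. The promoter that drives the tag in each line is not given in the sources used here, and nothing states that samples 1 to 3 came from separate clutches, so the tests speak to the variation among these libraries, which may be partly technical.

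Vertebrate red cells fill with hemoglobin, a protein assembled from alpha-type and beta-type globin chains around heme. In the zebrafish embryo the first, primitive red cells arise from mesoderm that also gives rise to endothelial cells, and they use an embryonic set of globin genes (hbae and hbbe) in place of the adult set (hbaa and hbba). Gata1 is the master transcription factor of the red cell lineage and drives globin and heme genes. Alas2 is the red cell form of the first enzyme of heme synthesis. Blf (bloody fingers) is a zinc finger protein needed for globin expression in primitive zebrafish red cells. In the RefSeq annotation of assembly GRCz12tu, which is not the build of the counts and was used for gene order alone, hbbe3 and hbae5 lie in one globin locus in the order hbae4, hbbe3, hbbe2, hbae5, and hbae3 lies at the end of a second locus beside hbae1.3.

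Library totals ran from 18337269 to 49541930 counts. The globin rows took 0.474% to 1.23% of counts in AngioTag IP and 0.317% to 0.538% in AngioTag input, 0.131% to 0.425% in RiboTag IP and 0.323% to 0.535% in RiboTag input, and 0.809% to 4.56% in FACS sorted and 0.438% to 0.934% in FACS total. The single gene zgc:158463 took 15.3% of the counts of FACS sorted sample 2 and 4.19% of AngioTag IP sample 1, against at most 1.11% in any other library, and these counts are in the totals behind the globin shares. FACS sorted sample 3 stood apart in the erythroid genes. Its summed globin level was 4.36 times the mean of sorted samples 1 and 2, its blf level 8.64 times, its gata1a level 7.71 times and its alas2 level 7.82 times, while its summed level of 13 endothelial marker rows was 0.757 times that mean. FACS total sample 3 was also above total samples 1 and 2, by 1.91 times for the globin sum. Results of the sort are therefore given with and without FACS sorted sample 3. As a check of the labels, kdrl, a receptor gene of endothelial cells, had 414, 401 and 703 normalized CPM in AngioTag IP against 23.5, 27.1 and 29.98 in AngioTag input, and 1348, 891 and 1154 in FACS sorted against 32.0, 28.4 and 36.8 in FACS total.

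Levels are CPM values scaled by the trimmed mean of M-values over all 18 libraries (normalized CPM). They are not divided by gene length, so a level is compared between libraries and never between genes. The beta-type globin gene hbbe3 (ENSDARG00000038147) had 4066, 1184.5 and 2607 normalized CPM in AngioTag IP samples 1, 2 and 3, against 1157, 716 and 769.5 in AngioTag input. It had 692, 201 and 929 in RiboTag IP, against 1147, 603 and 844 in RiboTag input. It had 2436, 2003 and 10261 in FACS sorted, against 1429, 736 and 2387 in FACS total. The AngioTag IP values were all above those of the input, by a small margin (1184.5 against 1157), whereas the RiboTag and FACS pairs overlapped. Sample 2 was the lowest of its group in all 6 groups. For statements on overlap, here and below, the share of all genes that separate in the same way was not computed. By group mean the order was FACS sorted, AngioTag IP, FACS total, AngioTag input, RiboTag input and RiboTag IP, with 4900 ± 4648 at the top and 607 ± 371 at the bottom (SD, n = 3), and each pair of neighbours in that order overlapped.

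The alpha-type gene hbae3 (ENSDARG00000079305) followed hbbe3 closely. It had 2865, 1081 and 2349 normalized CPM in AngioTag IP, against 1113, 689 and 740 in AngioTag input. It had 760, 221 and 1149 in RiboTag IP, against 1042, 567 and 770 in RiboTag input, and 2153, 1981 and 9151 in FACS sorted, against 1264, 743 and 1899 in FACS total. The AngioTag pair overlapped by a small margin at IP sample 2, and the FACS groups did not overlap. The order of group means was that of hbbe3, with all neighbours overlapping. The other alpha-type gene, hbae5 (ENSDARG00000045142), rested on 37 to 1073 counts a library, against 8531 to 360490 counts for hbae3. It had 6.6, 3.15 and 4.71 normalized CPM in AngioTag IP, against 2.51, 1.69 and 1.19 in AngioTag input. It had 6.17, 0.960 and 6.92 in RiboTag IP, against 5.81, 2.59 and 2.76 in RiboTag input, and 5.95, 6.27 and 27.2 in FACS sorted, against 4.49, 2.20 and 6.0 in FACS total. AngioTag IP lay above AngioTag input in every library, and the FACS groups overlapped. AngioTag input was the lowest group for hbae5 and did not overlap the next one up, RiboTag input, whereas the other neighbours overlapped.

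The red cell transcription factor gene gata1a (ENSDARG00000013477; 106 to 2530 counts a library) varied little outside the sort. It had 9.58, 4.49 and 7.86 normalized CPM in AngioTag IP, against 8.22, 3.98 and 5.55 in AngioTag input, and 5.67, 5.19 and 9.70 in RiboTag IP, against 8.45, 7.58 and 6.74 in RiboTag input. It had 8.93, 7.74 and 64.2 in FACS sorted, against 4.71, 2.07 and 6.13 in FACS total. All sorted libraries were above all total libraries, but sorted samples 1 and 2 lay in the range of the AngioTag and RiboTag groups. FACS total had the lowest mean for gata1a, at 4.30 ± 2.06, and every pair of neighbours in the order overlapped.

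The zinc finger gene blf (ENSDARG00000043126) had the highest ratio of its highest to its lowest library of the 6 genes. It had 53.2, 26.3 and 53.7 normalized CPM in AngioTag IP, against 16.9, 9.22 and 12.9 in AngioTag input. It had 17.1, 15.1 and 23.1 in RiboTag IP, against 29.4, 23.5 and 20.6 in RiboTag input. It had 191, 141 and 1436 in FACS sorted, against 56.5, 33.3 and 137 in FACS total. AngioTag IP lay above its input and FACS sorted above FACS total in every library, and AngioTag input was the lowest group, at 13.0 ± 3.82. In the order of means FACS sorted and FACS total, the group next to it, did not overlap, by a small margin (141 against 137). The other neighbours overlapped.

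The heme synthesis gene alas2 (ENSDARG00000038643) did not separate AngioTag IP from its input. It had 48.7, 38.3 and 41.0 normalized CPM in AngioTag IP, against 49.1, 31.0 and 36.4 in AngioTag input. It had 26.3, 28.6 and 27.8 in RiboTag IP, against 49.6, 46.0 and 36.4 in RiboTag input, and 146, 90.3 and 922 in FACS sorted, against 94.7, 49.3 and 114 in FACS total. RiboTag IP was the lowest group, at 27.6 ± 1.14, and did not overlap AngioTag input, its neighbour in the order; the other neighbours overlapped.

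**Figure D1:**
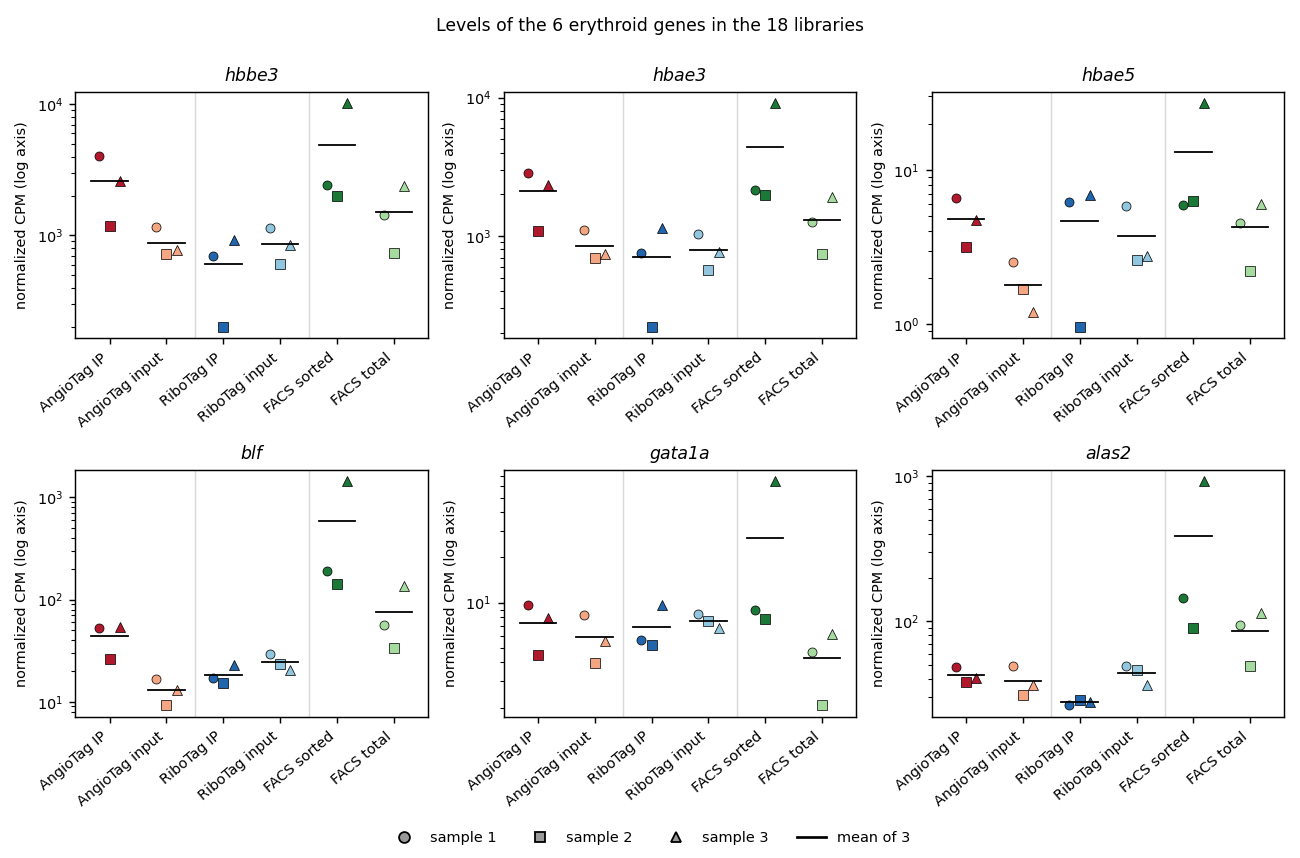
Normalized CPM (log axis) of the 6 genes in the 18 libraries; marker shapes are samples 1, 2 and 3, and horizontal lines are group means of 3. Every AngioTag IP library lies above every AngioTag input library for hbbe3 (by a small margin), hbae5 and blf. The groups overlap for hbae3 (also by a small margin), gata1a and alas2. FACS sorted sample 3 (10261 for hbbe3, 1436 for blf, 64.2 for gata1a) lies far above the other sorted samples.

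Most globin counts belonged to few rows. The alpha-type hbae1.2 took a median of 28.2% of a library's globin counts, hbbe3 22.1%, hbae3 20.5%, the beta-type row named HBE1 (ENSDARG00000087390) 13.4% and hbae1.3 11.1%. The rows hbae1.1 at 2.27% and HBE1 (ENSDARG00000045143) at 1.16% followed, and hbae4 at 0.218% and hbae5 at 0.0638% were minor. The adult genes hbaa1 and hbaa2 had at most 43 and 25 counts in any library, and 3 further rows named HBE1 (ENSDARG00000069734, ENSDARG00000089087 and ENSDARG00000097238) at most 23, 16 and 8. The name table gives the human-style name HBE1 to 5 zebrafish rows, so which of the zebrafish beta-type genes each one is was not resolved. The 3 member globins held 35.5% to 47.4% of globin counts.

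In the comparison of endothelial ribosome-bound RNA with whole-embryo RNA of the same line, the globin genes and blf rose in AngioTag IP and gata1a and alas2 did not pass the test. The fold changes are log2 values from edgeR's quasi-likelihood test with Benjamini-Hochberg adjustment over all tested genes, and a gene is called at an adjusted p below 0.05. hbbe3 rose by 1.56 ± 0.40 (SE; adjusted p = 0.0229), hbae3 by 1.29 ± 0.35 (0.0271) and hbae5 by 1.40 ± 0.39 (0.0307). blf rose by 1.76 ± 0.32 (adjusted p = 0.00513, edgeR). gata1a had a log2 change of 0.28 ± 0.35 (adjusted p = 0.590) and alas2 of 0.12 ± 0.21 (0.713). So 4 of the 6 genes were called higher and 0 lower, where 12.1% of the 17913 genes tested were called higher and 11.9% lower. The median log2 change of the 6 was 1.35, against -0.03 over all genes tested. In bulk RNA, the number of red cells that contributed and the RNA from each cannot be told apart. No group lacks a tag, so how red cell RNA entered the pull-down was not tested.

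Most of the other globin rows with enough counts also rose in AngioTag IP. Of the 10 globin rows that were tested, 8 were called higher, led by HBE1 (ENSDARG00000045143) at 1.69 ± 0.32, and also including HBE1 (ENSDARG00000087390), hbae1.2, hbae1.3 and hbae4 at 1.04 to 1.31. hbae1.1 (0.56, adjusted p = 0.381, edgeR) and the adult hbaa1 (0.46, adjusted p = 0.668) did not pass, and the other 4 of the 14 rows fell under the count filter. The median log2 change of the 10 was 1.28. The sum of all globin rows was 14627, 5151 and 11430 normalized CPM in AngioTag IP, against 5348, 3366 and 3626 in AngioTag input, a log2 change of 1.33 ± 0.36 (adjusted p = 0.0282). IP sample 2 lay below input sample 1, so the groups overlapped.

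Without IP sample 3, input sample 2 or input sample 3, blf alone of the 6 was called, and 1 of the globin rows was. Leaving out each of the other 3 libraries gave 4 called members. Fewer genes of the whole table were called higher in the first of these fits as well. They numbered 1243 without IP sample 3, 1217 without input sample 2 and 1026 without input sample 3, against 2170 with all libraries. Without input sample 1, which kept the 4 members, they numbered 1126. The globin sum was not called without IP sample 3 or any 1 of the input samples (adjusted p of 0.0521 to 0.107 in edgeR). With the sample number as a block it rose by 1.23 ± 0.21 (adjusted p = 0.00318, edgeR). The same 4 members were called in that fit, where 2352 of 17913 genes were called higher. That pairing is not borne out for IP sample 2. With upper-quartile scaling, which moved the median of all genes to -0.24, 2 of the 6 were called, and hbae3 and hbae5 had edgeR adjusted p-values of 0.0525 and 0.0549. With all 18 libraries in 1 fit none of the 6 was called.

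Other genes of the red cell lists did not follow the globins as a body in AngioTag IP. Of 10 genes of heme synthesis, only CPOX, coproporphyrinogen oxidase, was called higher (0.99 ± 0.27), and without IP sample 3 or any 1 of the input samples no gene of the list was; the median of the list was 0.37. Of 16 tested genes of iron uptake and mitochondrial transport, 0 were called higher and ISCA1, an iron-sulfur cluster assembly gene, was called lower (-1.18), a call lost without IP sample 2 or 3 or input sample 1 or 3; the median was 0.46. Of 19 tested genes listed as erythroid transcription factors, 8 were called higher and 2 lower, with a median of 0.44. The largest rises were those of gfi1aa (4.97 ± 0.39), LMO2 (2.56 ± 0.27), drl (1.80 ± 0.55) and blf, of which drl was not called without IP sample 3 or any 1 of the input samples, with upper-quartile scaling or with all 18 libraries in 1 fit; LMO2 is expressed in endothelial cells as well as in blood cells. LDB1 (ENSDARG00000103158) and bcl11ab fell by 2.77 and 2.60. Without any 1 of the AngioTag libraries except IP sample 1, neither of these 2 was called. In the list of red cell membrane and signalling genes 4 of 17 were called higher and 2 lower, with a median of -0.01. The 2 rows named AQP1 (ENSDARG00000091027 and ENSDARG00000023713) rose by 5.76 and 5.34; aquaporin 1 is a water channel of red cells and of endothelial cells. kel rose by 1.15 and jak2a by 0.53, and both calls were lost without IP sample 3 or any 1 of the input samples, that of kel also without IP sample 2. ANK1 (ENSDARG00000074777) and SLC4A1 (ENSDARG00000024560), named for ankyrin and the anion exchanger of the red cell membrane, fell by 2.84 and 2.60. The SLC4A1 call was lost without input sample 3, and the ANK1 call without IP sample 2 or any 1 of the input samples. The second rows of these names, ANK1 (ENSDARG00000059093) and SLC4A1 (ENSDARG00000012881), were not called. That second SLC4A1 row had a Pearson correlation of 0.982 with alas2 over the 18 libraries, so these falls do not hold for each row of the 2 names.

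Of the markers of other cells, most endothelial and myeloid rows rose in AngioTag IP, and most skeletal muscle rows fell. Of 13 skeletal muscle rows 10 were called lower and 1 higher, with a median log2 change of -1.22. Of 13 neural rows 6 were called lower and 0 higher, with a median of -1.04. The muscle rows still summed to 9207 to 11526 normalized CPM in AngioTag IP, against 14093 to 18554 in AngioTag input. The 13 endothelial marker rows summed to 4756, 3364 and 6101 normalized CPM in AngioTag IP, against 183, 184 and 186 in AngioTag input, and 12 of 13 were called higher. The 20 myeloid rows, listed because white blood cells are a neighbouring blood lineage, summed to 471 to 1183 in AngioTag IP, against 39.1 to 80.9 in AngioTag input, with 12 of 17 tested rows called higher. The 10 thrombocyte rows summed to 57.5 to 74.1 in AngioTag IP, against 60.0 to 71.5 in AngioTag input, while 3 of 7 tested rows were called higher and 1 lower, with a median log2 change of 1.34. Without IP sample 3 or input sample 1 or 2, 1 of them was called higher. No endothelial row and 1 myeloid row were at 0 in all AngioTag IP libraries, and the part of these cells in the globin result was not tested. The share of counts in 13 mitochondrial genes was 0.247% to 0.288% in AngioTag IP, against 3.74% to 4.47% in AngioTag input, and with these genes and zgc:158463 left out the 6 genes gave 4 calls as before.

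**Figure D2:**
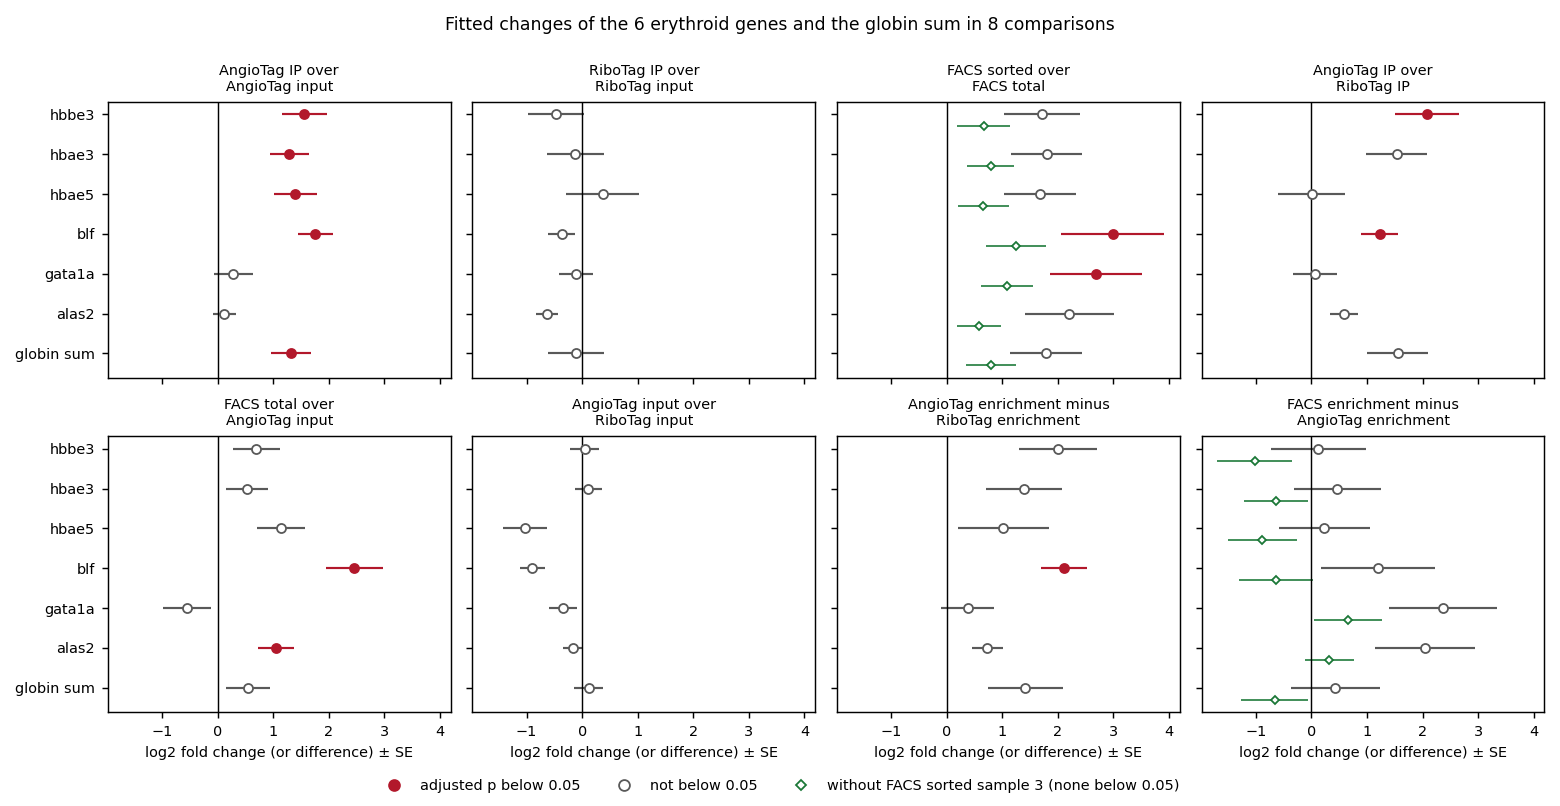
Fitted log2 fold changes (first 6 panels) and differences of log2 fold changes (last 2 panels) with SE for the 6 genes and the globin sum, filled where the adjusted p was below 0.05; green diamonds are the fits without FACS sorted sample 3. The globins and blf are called in AngioTag IP over input, and in the sort the changes of blf (2.99) and gata1a (2.69) are called until sorted sample 3 is left out (1.24 and 1.08).

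In the comparison of whole-embryo ribosome-bound RNA with input RNA, none of the 6 genes was called by edgeR. The log2 changes in RiboTag IP were -0.47 ± 0.50 for hbbe3, -0.12 ± 0.52 for hbae3, 0.37 ± 0.66 for hbae5, -0.37 ± 0.24 for blf and -0.11 ± 0.30 for gata1a. alas2 had the narrowest error, with -0.63 ± 0.19 (adjusted p = 0.143). Across all 18134 genes tested 0.700% were called higher and 0.496% lower, and the median change was -0.24 for the 6 genes and -0.05 for all genes. The globin sum was 3958, 1193 and 5263 normalized CPM in RiboTag IP, against 5075, 2760 and 3689 in RiboTag input, and RiboTag IP sample 2 was the lowest of the 18 libraries. With the sample number as a block, which the data bear out as a pairing of IP and input, alas2 fell by 0.62 (adjusted p = 0.0385), and 6.99% of all genes were called lower in that fit. Its paired log2 differences were -0.91, -0.69 and -0.39 for samples 1, 2 and 3. At an unadjusted p below 0.05 the fit without the block had 3362 of the 18134 genes, and DESeq2 called alas2 (adjusted p = 0.0423). Among the other lists, tfr1b, a transferrin receptor gene, was called lower in RiboTag IP (-1.32 ± 0.23, adjusted p = 0.0367), 1 of 16 tested genes of iron uptake and mitochondrial transport. With the block 5 of the 16 were called lower, and without RiboTag IP sample 1 or any RiboTag input sample none was. Those last fits called almost no gene of the whole table. Without RiboTag IP sample 1, 0 of 18753 genes were called higher and 5 lower. Without RiboTag input sample 1, 2 or 3 the numbers were 0 and 10, 1 and 14, and 1 and 10. The lost calls are therefore not particular to this list.

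The difference between the pull-down effects of the 2 lines was tested directly, as the log2 IP-over-input change in AngioTag minus that in RiboTag. blf differed by 2.11 ± 0.42 (adjusted p = 0.00618, edgeR): its IP-over-input ratio was 3.16, 2.85 and 4.16 in AngioTag samples 1, 2 and 3, against 0.583, 0.642 and 1.12 in RiboTag samples 1, 2 and 3. It was the only one of the 6 called, where 4.46% of 19046 genes were called higher and 3.53% lower. The differences were 2.01 ± 0.70 for hbbe3 (adjusted p = 0.1001), 1.39 ± 0.68 for hbae3 (0.244), 1.01 ± 0.82 for hbae5 (0.510), 0.73 ± 0.28 for alas2 (0.138) and 0.37 ± 0.48 for gata1a (0.705). For the globin sum the difference was 1.41 ± 0.68 (adjusted p = 0.234). With the sample number as a block 4 of the 6 were called higher, where 7.85% of all genes were: hbbe3 at 2.08 (adjusted p = 0.00294), hbae3 at 1.56 (0.0187), blf at 2.08 (0.000178) and alas2 at 0.74 (0.0498), and the globin sum at 1.52 (0.0212). With all 18 libraries in one fit none was called, and blf had an adjusted p of 0.187. Of the other lists, 7 of 19 erythroid transcription factor genes were called higher, led by gfi1aa (6.24), LMO2 (2.67), drll.1 (2.62) and blf, and 5 of 18 membrane and signalling genes, led by AQP1 (ENSDARG00000091027) at 6.33, AQP1 (ENSDARG00000023713) at 4.54, kel at 2.43 and ucp3 at 2.26. Without AngioTag input sample 3 that last count was 1. In heme synthesis none was called higher (3 with the block) and ALAS1, the form of the enzyme outside red cells, was called lower (-1.06); that call was lost without AngioTag IP sample 3, AngioTag input sample 1 or 2 or RiboTag input sample 1 or 2. In iron uptake 1 gene, tfr1b (1.82), was called higher, and 4 were with the block. The medians of these 4 lists, in the order given, were 0.73, 0.40, 0.67 and 0.89, against -0.07 for all genes.

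The 2 kinds of ribosome-bound RNA were also compared directly. hbbe3 was higher in AngioTag IP than in RiboTag IP by 2.08 ± 0.57 (adjusted p = 0.0269, edgeR) and blf by 1.23 ± 0.33 (0.0248), so 2 of the 6 were called higher and 0 lower, with a median of 0.91 against -0.01 for all genes, where 9.86% of 17096 genes were called higher and 8.76% lower. The others had differences of 1.53 ± 0.55 for hbae3 (adjusted p = 0.0720), 0.01 ± 0.60 for hbae5 (0.994), 0.06 ± 0.40 for gata1a (0.937) and 0.59 ± 0.26 for alas2 (0.127). The signs for hbae5 and gata1a turned under upper-quartile scaling, to -0.13 and -0.08. Of 11 tested globin rows 4 were called higher, namely hbbe3, HBE1 (ENSDARG00000087390) at 2.07, hbae4 at 1.74 and HBE1 (ENSDARG00000045143) at 1.61. No member was called without AngioTag IP sample 1 or 3 or without RiboTag IP sample 1, and hbbe3 alone was without RiboTag IP sample 2. No globin row was called without the first 3 of these libraries. Genes of the whole table called higher numbered 1764 and 806 without AngioTag IP sample 1 and 3. They numbered 959 and 1713 without RiboTag IP sample 1 and 2, against 1685 with all libraries. Same-numbered libraries also deviated together across the pull-downs, but weakly, with correlations of 0.105, 0.121 and 0.112. The block results here rest on that weak pairing. With the block 3 of the 6 were called higher by edgeR (13.8% of all genes), with hbae3 added at 1.71 (adjusted p = 0.00867), and 7 of the globin rows. The globin sum, 1.55 ± 0.55 (adjusted p = 0.0699, edgeR) without the block, had 1.67 (0.0253) with it.

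Several genes of the red cell lists outside the globins differed between the pull-downs, and not all of them are particular to red cells. In heme synthesis uros, for uroporphyrinogen synthase, was higher in AngioTag IP by 1.13 and ALAS1 lower by 0.98. The uros call was lost without RiboTag IP sample 1, and the ALAS1 call without AngioTag IP sample 2 or 3 or RiboTag IP sample 1 or 3. Of 16 iron genes 4 were called higher: tfr1b (1.90), SLC40A1, the iron exporter ferroportin (1.51), ISCU (ENSDARG00000026582; 1.49) and ABCB10, a mitochondrial transporter (1.02). Without AngioTag IP sample 3 or RiboTag IP sample 1 only 1 of the list was. Of 18 transcription factor genes 8 were called higher and 1 lower, led by gfi1aa (6.27), LMO2 (2.36), KLF3 (1.87) and TAL1 (1.73), with LDB1 (ENSDARG00000103158) lower by 4.61; TAL1 is, like LMO2, shared by blood and endothelial cells. Without AngioTag IP sample 3, 5 were called higher. Of 17 membrane and signalling genes 6 were called higher and 0 lower, led by the 2 AQP1 rows (4.95 and 4.81), kel (2.99) and ucp3 (2.46).

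In the comparison of sorted endothelial cells with total RNA of the FACS experiment, blf and gata1a were called higher in FACS sorted, and both calls rested on sorted sample 3. blf rose by 2.99 ± 0.92 (adjusted p = 0.0392, edgeR) and gata1a by 2.69 ± 0.83 (0.0390). The globins had changes of the same sign that did not pass, with 1.72 ± 0.68 for hbbe3 (adjusted p = 0.0902), 1.80 ± 0.64 for hbae3 (0.0641), 1.67 ± 0.65 for hbae5 (0.0845) and 1.79 ± 0.65 for the globin sum (0.0671), and alas2 had 2.20 ± 0.80 (0.0689). Of 19326 genes tested, 13.9% were called higher and 14.8% lower. Without sorted sample 3 none of the 6 was called (15.6% of all genes higher, 11.0% lower), and the log2 changes were 0.66 for hbbe3, 0.79 for hbae3, 0.65 for hbae5, 1.24 for blf, 1.08 for gata1a and 0.58 for alas2, with adjusted p-values of 0.127 to 0.344 in edgeR. That fit has 2 sorted libraries against 3. Without FACS total sample 1 or 2 none of the 6 was called either, and without total sample 3 blf alone was; without sorted sample 2, 4 were. Genes of the whole table called higher numbered 1668, 1971 and 2509 without total sample 1, 2 and 3. They numbered 2498 without sorted sample 2, against 2678 with all libraries. The median of the 6 was 2.00 with all libraries, against -0.11 for all genes, and 0.73 without sorted sample 3.

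The ratios of sorted to total libraries with the same number differed widely. For hbbe3 they were 1.70, 2.72 and 4.30 in samples 1, 2 and 3, for hbae3 1.70, 2.67 and 4.82, and for hbae5 1.32, 2.84 and 4.54. For blf they were 3.38, 4.24 and 10.5, for gata1a 1.89, 3.74 and 10.5, and for alas2 1.54, 1.83 and 8.11. All these ratios were above 1, and sample 3 had the highest for every gene. They come from 3 pairs of libraries, and the genes vary together, so they are not separate results. The share of all genes with such ratios was not computed. For FACS sorted and total the data bear out the pairing of sample numbers for samples 1 and 3 (correlations of 0.290 and 0.152) but not for sample 2 (0.018). With the sample number as a block edgeR called hbbe3, hbae3, blf and gata1a higher (adjusted p of 0.00946 to 0.0348), where 2516 of 19326 genes were. The globin sum was also called (1.52, adjusted p = 0.0410), while hbae5 (0.0555) and alas2 (0.0835) were not. Sorted sample 3 is part of that fit. Beside the erythroid genes, the 20 myeloid rows summed to 1370, 1951 and 878 normalized CPM in FACS sorted, against 69.7, 92.2 and 55.7 in FACS total, and the 10 thrombocyte rows to 194, 222 and 333, against 471, 572 and 309. Although that sum was lower in sorted samples 1 and 2 than in any total sample, 6 of 9 tested thrombocyte rows were called higher and 2 lower in FACS sorted, with a median log2 change of 2.58, and 6 and 2 without sorted sample 3. The endothelial rows summed to 9757, 8378 and 6868 in FACS sorted, against 362, 305 and 331 in FACS total. Sorted sample 3 was thus the lowest sorted library for endothelial and myeloid rows and the highest for thrombocyte, globin and heme rows; the part of these other cells in the erythroid results was not tested.

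Of 10 globin rows tested 3 were called higher, HBE1 (ENSDARG00000045143) at 1.95, hbae1.3 at 1.74 and hbae1.1 at 1.39, and 0 without sorted sample 3 or without total sample 1 or 2. Of 10 heme synthesis genes FECH, ferrochelatase, was called higher (2.32 ± 0.76), and it was not called without sorted sample 3 (0.84) or without any 1 of the total samples. Without sorted sample 3, 1 other gene of the list was called higher, and without sorted sample 2, 7 of the list were called. The summed level of that list was 969, 675 and 3891 normalized CPM in FACS sorted, against 601, 358 and 767 in FACS total. Of 17 iron genes 7 were called higher, led by the transferrin receptor genes tfr1a (3.17) and TFR2 (2.54), the heme oxygenase gene HMOX1 (2.87) and ABCB10 (2.30), and 3 without sorted sample 3 and 1 without total sample 1. Of 20 transcription factor genes 10 were called higher and 2 lower, led by gfi1aa (4.69), LMO2 (3.05), blf and drll.1 (2.83), with bcl11ab and BCL11A lower by 2.21 and 1.71; without sorted sample 3, 5 were higher and 2 lower, and drll.1 (1.37) and BCL11A (-1.29) were among the calls lost; without total sample 1 or 2, 4 were higher, and without sorted sample 1 or total sample 2 none was lower. Of 18 membrane and signalling genes 5 were called higher and 2 lower, led by the 2 AQP1 rows (5.88 and 4.66), kel (3.03) and ucp3 (2.00), with TMOD1 and ANK1 (ENSDARG00000074777) lower by 2.75 and 2.31. Those 2 counts were 5 and 3 without sorted sample 3, and 3 and 1 without total sample 2; without sorted sample 2, 11 were higher. The medians of the heme, iron, transcription factor and membrane lists were 1.88, 1.61, 2.64 and 1.87.

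**Figure D3:**
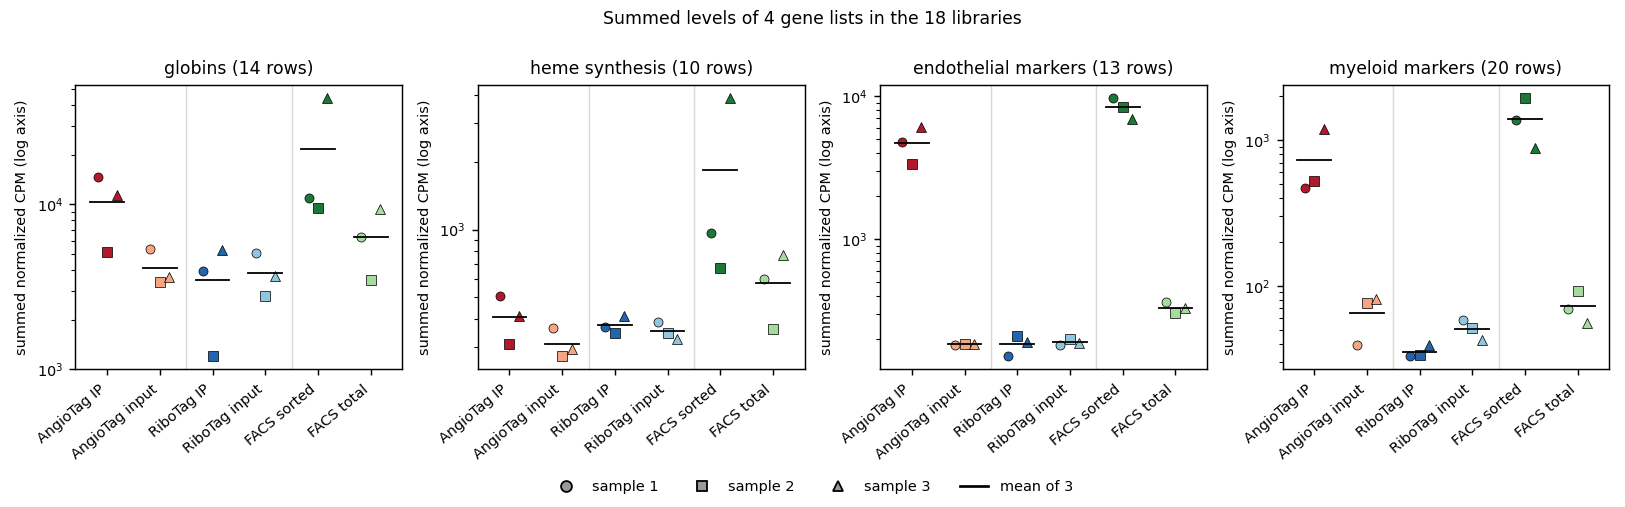
Summed normalized CPM (log axis) of the globin rows, the heme synthesis genes and the endothelial and myeloid marker rows in the 18 libraries. FACS sorted sample 3 has the highest globin sum (44482) and heme sum (3891) and the lowest endothelial (6868) and myeloid (878) sums of the sorted samples.

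The sort and the pull-down of the Angiotag line were compared as the difference of their log2 enrichments, FACS sorted over FACS total minus AngioTag IP over AngioTag input. None of the 6 genes was called by edgeR, where 5.12% of 20153 genes were called higher and 3.00% lower; 5227 genes had an unadjusted p below 0.05, and DESeq2 called gata1a (2.52, adjusted p = 0.0456). The differences were 2.36 ± 0.97 for gata1a (adjusted p = 0.143), 2.05 ± 0.90 for alas2 (0.167), 1.2 ± 1.03 for blf (0.487), 0.47 ± 0.78 for hbae3, 0.24 ± 0.82 for hbae5 and 0.12 ± 0.85 for hbbe3. Without sorted sample 3 the globins and blf turned sign, with -1.02 for hbbe3, -0.64 for hbae3, -0.89 for hbae5, -0.63 for blf and -0.66 for the globin sum, and gata1a and alas2 had 0.66 and 0.33. Among the other lists TFR2 (8.24), LDB1 (ENSDARG00000103158; 3.83), ZFPM1, a Gata1 cofactor gene (3.70), HMOX1 (2.68) and ISCA1 (1.66) were called higher and TMOD1 (-2.28) lower. TFR2 had 0 counts in all AngioTag IP libraries, so its fitted difference depends on the prior count and is no measured size. The 2 calls of transcription factor genes became 1 without AngioTag input sample 1 or 3. The 3 iron calls became 1 without AngioTag IP sample 2 or 3 or AngioTag input sample 1, and 2 without sorted sample 3. With 1 library left out at a time, TMOD1 was called without AngioTag IP sample 3 or FACS total sample 2 and not in the other 10 fits.

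The 2 kinds of whole-embryo RNA from the Angiotag line were also compared. They differed in many genes of the whole table, and of 13 skeletal muscle rows 9 were called lower in FACS total and 1 higher. blf was higher in FACS total than in AngioTag input by 2.46 ± 0.51 (adjusted p = 0.00560, edgeR) and alas2 by 1.05 ± 0.33 (0.0294), and these were 2 of the 6 called in a comparison where 25.2% of 19266 genes were called higher and 21.2% lower. The others had 0.70 ± 0.42 for hbbe3 (adjusted p = 0.207), 0.53 ± 0.37 for hbae3 (0.269), 1.15 ± 0.44 for hbae5 (0.0593) and -0.55 ± 0.43 for gata1a (0.321), and the globin sum had 0.54 ± 0.40 (0.287). Of 10 globin rows 0 were called. The alas2 call was lost without AngioTag input sample 2 or 3 or FACS total sample 1; without FACS total sample 2, 4 of the 6 and 4 globin rows were called higher. In these fits 3518, 3684, 3987 and 4278 genes of the whole table were called higher, in the order given, against 4848 with all libraries. Of 10 heme synthesis genes 6 were called higher, including UROD (1.52), ALAD (1.1), FECH (1.1) and alas2, and 1 was without AngioTag input sample 2 or 3. In iron uptake 6 of 17 were called higher and 3 lower, led by tfr1a (4.29), TFR2 (2.98), STEAP3, a ferrireductase gene (2.48), and SLC25A37, the mitochondrial iron importer mitoferrin (1.42), with SLC40A1 and ISCU (ENSDARG00000035596) lower by 1.14 and 1.00; without FACS total sample 3, 6 were lower. Of 20 transcription factor genes 10 were called higher and 1 lower, led by GFI1B (5.41), KLF6 (3.48) and LDB1 (ENSDARG00000103158; 2.88), with CBFA2T3 lower by 0.76; without AngioTag input sample 2 the count was 6, and the CBFA2T3 call was lost without AngioTag input sample 2 or 3 or FACS total sample 1. Of 17 membrane and signalling genes 7 were called higher and 2 lower, led by stat5a (2.91), kel (2.65), ANK1 (ENSDARG00000059093; 2.22) and SLC4A1 (ENSDARG00000012881; 1.62), with TMOD1 and NT5C3A lower by 1.73 and 1.41. The protocol names poly(A) selection or rRNA depletion without tying either to a library, so the part of that choice was not tested.

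Between the inputs of the 2 lines none of the 6 genes was called by edgeR, where 0.818% of 18458 genes were called higher in AngioTag input and 0.845% lower; 4358 genes had an unadjusted p below 0.05. blf had -0.89 ± 0.22 (adjusted p = 0.0682) and hbae5 -1.03 ± 0.39 (0.155), and for both every AngioTag input library lay below every RiboTag input library. The other changes were 0.04 for hbbe3, 0.11 for hbae3, -0.34 for gata1a and -0.16 for alas2, and 0.12 for the globin sum, and hbbe3 and hbae3 turned sign without AngioTag input sample 1 or RiboTag input sample 2. DESeq2 called 1 of the 6, blf, with an adjusted p of 0.00435, and edgeR called it without AngioTag input sample 1 (-1.12, adjusted p = 0.0341). No gene of the 4 other red cell lists was called. These comparisons share libraries: each of the 6 groups enters more than one of them.

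Ratios of raw counts within a library compare genes free of the scaling between libraries. The beta-type rows had 0.791, 0.70 and 0.687 counts per alpha-type count in AngioTag IP, against 0.607, 0.663 and 0.617 in AngioTag input. They had 0.404, 0.371 and 0.459 in RiboTag IP, against 0.578, 0.527 and 0.598 in RiboTag input. They had 0.569, 0.547 and 0.580 in FACS sorted, against 0.619, 0.553 and 0.692 in FACS total. The ratio was thus above that of the input in all AngioTag IP libraries and below it in all RiboTag IP libraries, and the FACS pair overlapped. The members hbbe3 and hbae3 showed the same order, with 1.42, 1.1 and 1.11 hbbe3 counts per hbae3 count in AngioTag IP, against 1.04 in each AngioTag input library, and 0.910, 0.909 and 0.809 in RiboTag IP, against 1.1, 1.06 and 1.1 in RiboTag input. These are ratios of counts that reads shared between copies can shift, and they are no ratio of molecules. The 7 globin names that matched no row are all beta-type. Which of them the HBE1 rows stand for was not resolved, so the beta-type sum may lack some genes. With 3 libraries a side the two-sided exact permutation test cannot go below p = 0.1, the value that each pair of groups without overlap had. Over the 56 tests made (8 ratios in 7 pairs of groups) 33 had that value, and the smallest Benjamini-Hochberg adjusted value was 0.170.

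Counts of gata1a, alas2 and blf were also set against the globin counts. The permutation test cannot pass with 3 libraries a side, so these ratios are descriptions. gata1a had 0.655, 0.872 and 0.688 counts per 1000 globin counts in AngioTag IP, against 1.54, 1.18 and 1.53 in AngioTag input, and 0.818, 0.816 and 1.44 in FACS sorted, against 0.748, 0.594 and 0.657 in FACS total. alas2 had 3.33, 7.44 and 3.58 in AngioTag IP, against 9.17, 9.22 and 10.05 in AngioTag input, and 13.4, 9.53 and 20.7 in FACS sorted, against 15.03, 14.2 and 12.2 in FACS total. blf had 3.64, 5.10 and 4.70 in AngioTag IP, against 3.15, 2.74 and 3.56 in AngioTag input, and 17.5, 14.9 and 32.3 in FACS sorted, against 8.97, 9.57 and 14.7 in FACS total. Relative to the globins, gata1a and alas2 were lower and blf higher in AngioTag IP than in its input without overlap. The globin sum itself had a log2 change of 1.33 there, so a gene with little change falls relative to it. The share of all genes that separate from the globins in this way was not computed. In the sort gata1a and blf were higher without overlap, blf by a small margin (14.9 against 14.7), and alas2 overlapped. In RiboTag, sample 2 had the highest of these 3 ratios in IP and in input, with 4.35 for gata1a, 24.0 for alas2 and 12.7 for blf in RiboTag IP, against 2.75, 16.7 and 8.52 in RiboTag input. blf counts per alas2 count were 1.09, 0.686 and 1.31 in AngioTag IP, against 0.344, 0.297 and 0.354 in AngioTag input, and 1.31, 1.56 and 1.56 in FACS sorted, against 0.597, 0.676 and 1.2 in FACS total.

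**Figure D4:**
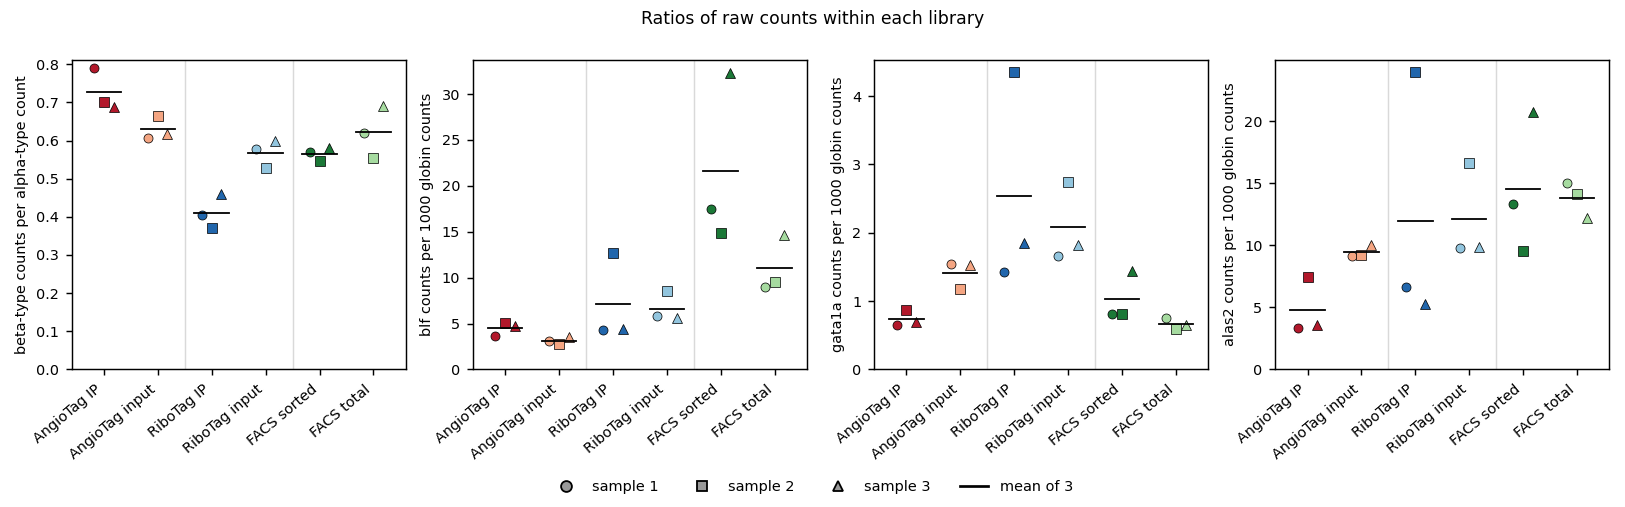
Ratios of raw counts within each library: beta-type per alpha-type globin counts, and blf, gata1a and alas2 counts per 1000 globin counts; marker shapes are samples and horizontal lines are means of 3. The beta-type share lies above the input in AngioTag IP (0.687 to 0.791) and below it in RiboTag IP (0.371 to 0.459).

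Over the 18 libraries the 6 genes varied together to different degrees. These are Pearson correlations of log2 normalized CPM given as descriptions, and the libraries share group differences, sample numbers and FACS sorted sample 3. The highest was 0.993 between hbbe3 and hbae3, then 0.941 between blf and alas2, and the lowest 0.689 between hbbe3 and gata1a. hbae5 had 0.833 with hbbe3 and 0.866 with hbae3. Among 10820 named genes with a mean log2 CPM of at least 2, the genes most like hbbe3 were hbae3, HBE1 (ENSDARG00000087390; 0.988) and hbae4 (0.978), and those most like hbae3 were hbbe3, hbae1.2 (0.990) and the same HBE1 row (0.984). Those most like hbae5 were hbae1.3 (0.916), znfl2a (0.903) and CTPS1 (0.894). For gata1a they were klf17 (0.964), CPOX (0.897) and ACP6 (0.860), klf17 being a Krüppel-like factor gene of zebrafish primitive red cells. For alas2 they were nt5c2l1 (0.986), SLC4A1 (ENSDARG00000012881; 0.982) and SPTB, the beta-spectrin gene of the red cell skeleton (0.981). For blf they were NMT1 (0.966), TMEM106B (0.960) and TMEM120A (0.958).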

How the data were processed

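Pooled transgene-positive zebrafish embryos at 24 hpf gave 18 libraries in 6 groups of 3, grouped by their labels. The authors deposited 1 table of raw counts per gene (whole numbers, 25193 genes; 0 columns were left unused). STAR 2.4.2a, RSEM 1.2.22, DESeq2 and build GRCz10 are named in the submitters' processing notes, without their roles; reads of near-identical copies may be split between them. Per the labels' protocols, RNA was poly(A)-selected or rRNA-depleted and made into stranded mRNA libraries. Of the gene IDs, 89.5% matched a symbol in a name table, and human-style names were kept.

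The counts as deposited were tested with edgeR 4.0.16 (R 4.3.3): quasi-likelihood F test, trimmed mean of M-values scaling, genes kept at a minimum count of 10 and total of 15, only the groups compared in the fit (4 groups for a difference of enrichments), and Benjamini-Hochberg adjustment over all genes with a threshold of 0.05. For the globin sum, all globin rows were replaced by 1 row holding their summed counts, and the whole table was refitted. SE is the log2 change divided by the root of F. DESeq2 1.42.0 and other scalings, filters and fits were alternatives. Library totals ran from 18337269 to 49541930 counts; hbae5 had the fewest counts of the members, 37 to 1073 a library.

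Fits with the sample number as a block were made as alternatives for every comparison. In some pairs of groups every correlation between the deviations of same-numbered libraries was over 0.1. These correlations were 0.261, 0.122 and 0.161 for AngioTag IP and input, 0.131, 0.470 and 0.322 for RiboTag IP and input, and 0.105, 0.121 and 0.112 between the pull-downs. AngioTag IP sample 2 had its highest correlation with an input sample of another number, so that pairing is not borne out for every sample. No 2 libraries of a group agreed within sampling noise.

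Genes named are the 6 members, every globin row, up to 4 called rises and 2 called falls per red cell list and comparison, and for each member the 3 genes of highest correlation (log2 CPM, prior count 2). kdrl and the other cell type markers were used as checks. One gene that this rule names is not reported here. The members and lists were chosen with earlier results of these data known. List names were matched by symbol, and 7 globin names (hbbe1.1, hbbe1.2, hbbe1.3, hbbe2, hbba1, hbba1l, hbba2) matched no row. Skeletal muscle and neural marker lists were also summed, with 544.8 to 604 and 133 to 229 normalized CPM in FACS sorted, against 1820 to 6469 and 655 to 1037 in FACS total, and 9207 to 11526 and 438 to 746 in AngioTag IP, against 14093 to 18554 and 1022 to 1052 in AngioTag input.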

Additional observations from a re-analysis of the deposited data

Results flagged for a closer look

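The IP-over-input change of blf differed between the 2 lines by 2.11 on the log2 scale (edgeR adjusted p = 0.00618), with AngioTag above RiboTag in all 3 sample numbers. It was singled out because the difference of the 2 changes was itself tested and passed. With all 18 libraries in 1 fit it was not called. The difference holds that between the inputs, where blf was lower in AngioTag by 0.89 ± 0.22 (adjusted p = 0.0682, edgeR). Directly between the pull-downs blf was higher in AngioTag by 1.23 ± 0.33 (0.0248). That direct call was lost without AngioTag IP sample 1 or 3 or RiboTag IP sample 1 or 2.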

How the results depend on the processing

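Scaling by relative log expression, the 1 CPM filter and leaving out mitochondrial genes with zgc:158463 kept the number of called members in all 8 comparisons. For AngioTag IP over input the 4 calls became 2 with upper-quartile scaling and 0 with all 18 libraries in 1 fit, and 1 to 4 with a library left out; the globin sum was 1.12 and 1.34 under the first 2, neither called, and 1.00 to 1.66 with a library left out. For RiboTag IP over input the 0 calls became 1 with DESeq2 and with the replicate block and stayed 0 with a library left out, and the sum ran from -0.53 to 0.31. Over all genes that comparison had 127 called higher and 90 lower, against 919 and 656 with DESeq2 and 1306 and 1268 with the block. Without RiboTag IP sample 1 these were 0 and 5, and without RiboTag IP sample 2 864 and 1014. For FACS sorted over total the 2 calls became 5 with DESeq2 and in 1 fit, 4 with the block and 0 to 4 with a library left out; the sum was 1.85, 1.76 and 1.52 under these, all called, and 0.80 to 2.21 with a library left out. For FACS sorted and total (correlations of 0.290, 0.018 and 0.152) the pairing by sample number is not borne out for sample 2. Sample numbers did not pair by the data for FACS total and AngioTag input (0.023, -0.172 and -0.103) or for the inputs (0.097, -0.305 and -0.115). The block in these last 2 rests on shared numbers alone. For AngioTag IP over RiboTag IP the 2 calls became 1 in 1 fit and 0 to 3 with a library left out; the sum was called with DESeq2 (1.57), without the filter (1.56), with the block (1.67) and from the 3 member globins (1.81). For FACS total over AngioTag input the 2 calls became 1 in 1 fit and 1 to 4 with a library left out. Genes of the whole table called higher there numbered 4200 in 1 fit, against 4848 in the fit used above. Between the inputs the 0 calls became 1 with DESeq2, without the filter and with the block, and 0 to 1 with a library left out, and the sum was -0.11 to 0.38. Genes of the whole table called lower were 863 with DESeq2, 280 without the filter and 68 with the block, against 156 before. For AngioTag minus RiboTag the 1 call became 2 with DESeq2, 0 in 1 fit, 4 with the block and 1 to 2 with a library left out, and the sum was 1.52 with the block. For FACS minus AngioTag the 0 calls became 1 with DESeq2 and 0 to 1 with a library left out, and the sum was -0.66 to 0.83. The block gave 3 called members for AngioTag IP over RiboTag IP and left the number unchanged for AngioTag IP over input, FACS total over AngioTag input and FACS minus AngioTag. Numbers of all genes called higher also moved, from 2170 to 1461 with upper-quartile scaling and 1553 in 1 fit for AngioTag IP over input. FACS sorted over total went from 2678 to 3371 with DESeq2, 3037 in 1 fit and 2516 with the block. AngioTag IP over RiboTag IP went from 1685 to 3052 in 1 fit. AngioTag minus RiboTag went from 850 to 1373 with DESeq2, 835 in 1 fit and 1495 with the block, and FACS minus AngioTag from 1031 to 2154 with DESeq2.

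Single members turned sign under some alternatives. With upper-quartile scaling alas2 had -0.083 in AngioTag IP over input, hbae5 -0.13 and gata1a -0.080 in AngioTag IP over RiboTag IP, and hbbe3 -0.0017 between inputs; with the 1 CPM filter hbae5 had -0.015 in AngioTag IP over RiboTag IP, and with the block -0.032 in FACS minus AngioTag. With a library left out, alas2 ran from -0.017 to 0.32 in AngioTag IP over input; hbae3 from -0.65 to 0.31, hbae5 from -0.020 to 0.86 and gata1a from -0.45 to 0.066 in RiboTag IP over input; hbae5 from -0.48 to 0.42 and gata1a from -0.17 to 0.40 in AngioTag IP over RiboTag IP; hbbe3 from -0.19 to 0.31 and hbae3 from -0.12 to 0.37 between inputs; and hbbe3 from -1.02 to 0.62, hbae3 from -0.64 to 0.85, hbae5 from -0.89 to 0.58 and blf from -0.63 to 1.97 in FACS minus AngioTag. The causes were not tested. The counts of list genes without FACS sorted sample 3 were added after the data were seen.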
